A study of Mus musculus with 22 samples.

Results

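Transcripts of 8 enzymes that build cholesterol (Hmgcs1, Mvd, Idi1, Fdps, Fdft1, Sqle, Lss and Cyp51) were followed through the mouse spinal cord in normal aging and in a model of amyotrophic lateral sclerosis (ALS). They were taken by name from a table of 21995 genes, and all 8 had a row and passed the filter on low counts in both comparisons. The enzymes cover the pathway from its entry into the mevalonate branch to the first sterols. In old mice 5 of the 8 transcripts were lower than in young mice, by up to 35.3%, against 12.9% of all genes tested. In the ALS mice all 8 were lower than in their controls, by 45.3% to 56.9%, against 15.5% of all genes tested.

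Whole spinal cord RNA was sequenced from 22 C57BL/6 mice. The aging experiment held 8 wild type males of 3 to 4 months (Young) and 8 wild type males of 18 to 24 months (Old), with libraries made by the Roche RNA KAPA Hyperprep kit. The ALS experiment held 3 symptomatic mice that carry a high-copy human SOD1 transgene with the G93A change (G93a) and 3 wild type controls (Control), all of 5 to 6 months, with 2 females and 1 male per group and libraries made by the Illumina TruSeq kit. The transgene is driven by the human SOD1 promoter, which is active in all tissues, and none of the groups carries a transgene for normal human SOD1. The kit goes with the experiment, so Old was compared only with Young, and G93a only with Control.

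Cholesterol in the central nervous system is made locally, because the lipoproteins of the blood do not cross the blood-brain barrier, and most of it lies in myelin. Oligodendrocytes make it for their sheaths, and astrocytes make it and pass it on to neurons bound to apolipoprotein E. The genes of the pathway are switched on together by the transcription factor SREBP-2, which leaves the endoplasmic reticulum when membrane sterol is low and is held there by INSIG proteins when sterol is plentiful.

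Total counts ran from 5078092 to 9358055 per library in the aging experiment and from 9675610 to 13219797 in the ALS experiment, and a member had between 95 and 5714 counts in a library. Libraries of 1 group all differed by more than sampling noise, and none was a duplicate of another. The Old library with the highest Fdft1 level stood apart from its group: the 10 largest genes took 15.1% of its counts, against a median of 9.87% over the aging libraries, and its scaling factor of 0.92 was the lowest. Its chi-square per degree of freedom against the other Old libraries was 11.4 to 34.5, against 2.76 to 13.1 among those. The labelled tissue was borne out by its markers: the Hox genes of the trunk cord summed to between 307 and 603 CPM (read counts scaled to a common library total), and myelin, astrocyte and neuron genes were abundant in every library. Of the 7 Hox genes, Hoxd10 was listed at 0 FPKM in at least 1 Old and 1 G93a library. The row of mouse Sod1 rose from between 156 and 168 CPM in Control to between 296 and 335 CPM in G93a (log2 fold change 0.95 ± 0.09 SE, adjusted p = 0.000241, edgeR's quasi-likelihood test, n = 3 per group, adjusted by Benjamini-Hochberg across every gene in the fit). The human transgene has no row of its own. The p-values measure the spread between these mice.

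SREBP-2 binds a short sterol regulatory element, often beside the CCAAT and GC boxes bound by its partners NF-Y and Sp1. RefSeq promoter windows were matched by symbol for 5 of the 8 genes (Hmgcs1, Mvd, Idi1, Lss and Cyp51), and the 250 bases before the RefSeq start site were searched on both strands for exact matches. TCACNCCAC, a form of the sterol regulatory element, was in 1 of the 5 windows, that of Hmgcs1, against 1.04% of all 32536 windows. CCAAT was in 5 of 5, against 33.8% of all windows, and GGGCGG was in 5 of 5, against 33.0%. The windows of Hmgcs1, whose transcript was lower in both comparisons, and of Mvd, whose transcript passed the test only in the ALS experiment, are shown 5′ to 3′ on the gene's strand (RefSeq, GRCm38.p6), with matches on either strand in capitals. The Hmgcs1 window is chr13:119690101-119690350 on the plus strand, and the Mvd window is chr8:122443423-122443672 on the minus strand.
Hmgcs1: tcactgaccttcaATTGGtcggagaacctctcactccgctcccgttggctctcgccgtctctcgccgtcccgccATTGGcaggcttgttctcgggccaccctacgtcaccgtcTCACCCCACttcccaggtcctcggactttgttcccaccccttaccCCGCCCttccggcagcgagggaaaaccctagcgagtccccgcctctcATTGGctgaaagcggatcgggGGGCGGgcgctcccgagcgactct
Mvd: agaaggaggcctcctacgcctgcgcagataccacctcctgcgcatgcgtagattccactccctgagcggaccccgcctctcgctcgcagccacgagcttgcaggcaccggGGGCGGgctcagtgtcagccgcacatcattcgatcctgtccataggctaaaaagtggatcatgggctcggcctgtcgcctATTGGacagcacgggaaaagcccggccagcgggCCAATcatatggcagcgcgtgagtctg
In the Hmgcs1 window the sterol element reads TCACCCCAC, with its first base 137 bases before the start site, and it lies among 3 CCAAT boxes and 2 GC boxes. The Mvd window holds 2 CCAAT boxes and 1 GC box. These letters are matches only, and binding was not measured. Idi1, Lss and Cyp51, whose windows held no sterol element of this form, were also lower in both comparisons.

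The level of each transcript per unit length was read from FPKM (fragments scaled to transcript length and library depth), within each group. Hmgcs1 stood first in every group, at 147 ± 16.2 FPKM in Young, 94.7 ± 6.74 in Old (mean ± SD, n = 8 each), 135 ± 19.7 in Control and 64.5 ± 24.3 in G93a (n = 3 each), and its range did not touch that of the next gene in any of the 4 groups. Fdps stood second in each group, at 59.7 ± 10.3 FPKM in Young, but its range overlapped that of the next gene in every group. Lss and Mvd stood last, at 14.1 ± 1.48 and 13.3 ± 1.80 FPKM in Young, and their ranges overlapped in every group while lying below those of the other 6. Fdft1, Cyp51, Sqle and Idi1 filled the middle, between 51.1 and 39.2 FPKM on average in Young, and neighbours in that order overlapped. In Old the middle opened up, with Fdft1 at 51.5 FPKM above Sqle at 33.3 and Cyp51 at 33.0, and these above Idi1 at 25.6, with no overlap between those 3 levels.

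Hmgcs1 (Ensembl gene ENSMUSG00000093930, chr13:119690379-119708260 on GRCm38) encodes cytosolic HMG-CoA synthase, which joins acetyl units into the precursor of mevalonate. In Young its level ran from 426 CPM through a median of 505 to 595. In Old it ran from 280 through 326 to 391 CPM, so that every old mouse lay below every young one. The difference was the largest of the 8 in aging, with a log2 fold change of -0.63 ± 0.07 (SE, adjusted p = 3.96e-07 by edgeR's quasi-likelihood test with the same Benjamini-Hochberg adjustment, as for every adjusted p given here). In the ALS experiment the controls were at 409, 447 and 542 CPM and the G93a mice at 151, 190 and 302. The groups again lay apart, with a log2 fold change of -1.12 ± 0.23 (adjusted p = 0.00763).

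Mvd (ENSMUSG00000006517, chr8:122433601-122443422) encodes mevalonate diphosphate decarboxylase, which makes the first isoprenoid unit. It was the least abundant member in CPM, at 18.8, 24.3 and 30.1 in Young (lowest, median and highest) and 18.4, 22.02 and 25.8 in Old. Only 2 of the 8 old mice were below the lowest young one, and the log2 fold change of -0.16 (95% interval -0.34 to 0.03) did not pass the test (adjusted p = 0.21). In the ALS experiment the controls were at 17.4, 17.5 and 25.7 CPM and the G93a mice at 8.05, 11.9965 and 13.1. These groups did not overlap, and the log2 fold change was -0.87 ± 0.22 (adjusted p = 0.0166), a call lost without the control with the highest level (adjusted p = 0.0616) or without the G93a mouse with the middle level (adjusted p = 0.0543).

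Idi1 (ENSMUSG00000058258, chr13:8885501-8892451) encodes isopentenyl diphosphate isomerase, which interconverts the isoprenoid units. Its level ran from 95.5 CPM through 117 to 135 in Young and from 61.2 through 82.1 to 96.2 in Old. A single old mouse reached into the young range, and the log2 fold change was -0.52 ± 0.08 (adjusted p = 2.19e-05). The controls of the ALS experiment were at 118, 125 and 139 CPM, and the G93a mice at 35.8, 48.9 and 80.2. This was the largest change among the members in G93a, with a log2 fold change of -1.22 ± 0.24 (adjusted p = 0.00667).

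Fdps (ENSMUSG00000059743, chr3:89093588-89101959) encodes farnesyl diphosphate synthase, whose product also feeds protein prenylation and the synthesis of dolichol and ubiquinone. In Young it ran from 61.5 CPM through 72.8 to 92.3, and in Old from 63.4 through 67.6 to 77.6. No old mouse was below the lowest young one, and the log2 fold change of -0.13 (95% interval -0.28 to 0.02) did not pass the test (adjusted p = 0.179). The controls were at 57.4, 57.5 and 65.0 CPM and the G93a mice at 22.6, 30.3 and 38.4. Here the groups lay apart, with a log2 fold change of -0.98 ± 0.17 (adjusted p = 0.00373). Of the exonic bases of Fdps, 26.7% are shared with the predicted gene Gm43738 on the same strand, which was listed at 0 in every library.

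Fdft1 (ENSMUSG00000021273, chr14:63145150-63179578) encodes squalene synthase, the first enzyme that commits its substrate to sterols. Its level was 145, 154 and 164 CPM in Young (lowest, median and highest) and 136, 153 and 200.4 in Old. The groups overlapped almost fully, and the log2 fold change was 0.02 (95% interval -0.10 to 0.14, adjusted p = 0.838). A single old mouse held the high value, with the next at 158 CPM, and without it the log2 fold change was -0.04 (adjusted p = 0.49). In the ALS experiment the controls were at 99.0, 113 and 118 CPM and the G93a mice at 41.2, 60.9 and 78.2, with a log2 fold change of -0.88 ± 0.20 (adjusted p = 0.0105). The 3′ part of the gene shares 18.3% of its exonic bases with Ctsb, a lysosomal protease gene on the other strand, and whether the counting used strand is not given in the sources used here. Ctsb rose in both comparisons, by a log2 fold change of 0.67 in Old and 1.94 in G93a (adjusted p = 1.66e-08 and 0.000407). The old mouse with the high Fdft1 level had the lowest Ctsb level of its group, 765 CPM against 980 to 1137 in the other 7, and the part of shared reads in either result was not tested.

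Sqle (ENSMUSG00000022351, chr15:59315077-59331192) encodes squalene epoxidase, one of the rate-limiting steps of the pathway. It ran from 117 CPM through 122 to 145 in Young and from 84.6 through 98.7 to 107 in Old. Every old mouse was below every young one, and the log2 fold change was -0.35 ± 0.05 (adjusted p = 1.25e-05). The controls were at 100, 102 and 117 CPM and the G93a mice at 41.2, 49.5 and 68.9. The fitted level fell by 50.05%, a log2 fold change of -1.001 ± 0.17 (adjusted p = 0.00344).

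Lss (ENSMUSG00000033105, chr10:76531588-76557138) encodes lanosterol synthase, which folds squalene epoxide into the first sterol. In Young it ran from 60.1 CPM through 70.7 to 83.3, and in Old from 49.9 through 60.7 to 64.3. Although 5 of the 8 old mice lay within the young range, all 8 were below the young median, and the log2 fold change was -0.26 ± 0.06 (adjusted p = 0.00442). That call was lost when limma was run on the deposited log2 FPKM values (adjusted p = 0.135). The controls were at 61.2, 64.0 and 76.2 CPM and the G93a mice at 29.996, 35.1 and 42.4, with a log2 fold change of -0.91 ± 0.14 and the smallest adjusted p among the members in G93a (0.00227).

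Cyp51 (ENSMUSG00000001467, chr5:4081145-4104746) encodes lanosterol 14-alpha demethylase, which starts the trimming of lanosterol toward cholesterol. Its level was 153, 166 and 179 CPM in Young (lowest, median and highest) and 101, 124 and 145 in Old. The groups did not overlap, and the log2 fold change was -0.41 ± 0.06 (adjusted p = 3.22e-05). The controls were at 130, 130 and 152 CPM and the G93a mice at 44.7, 59.8 and 90.6. These groups also lay apart, with a log2 fold change of -1.08 ± 0.22 (adjusted p = 0.00686). Cyp51 shares 3.76% of its exonic bases with Akap9 on the other strand, which was lower in both comparisons, with log2 fold changes of -0.43 and -0.36.

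**Figure D1:**
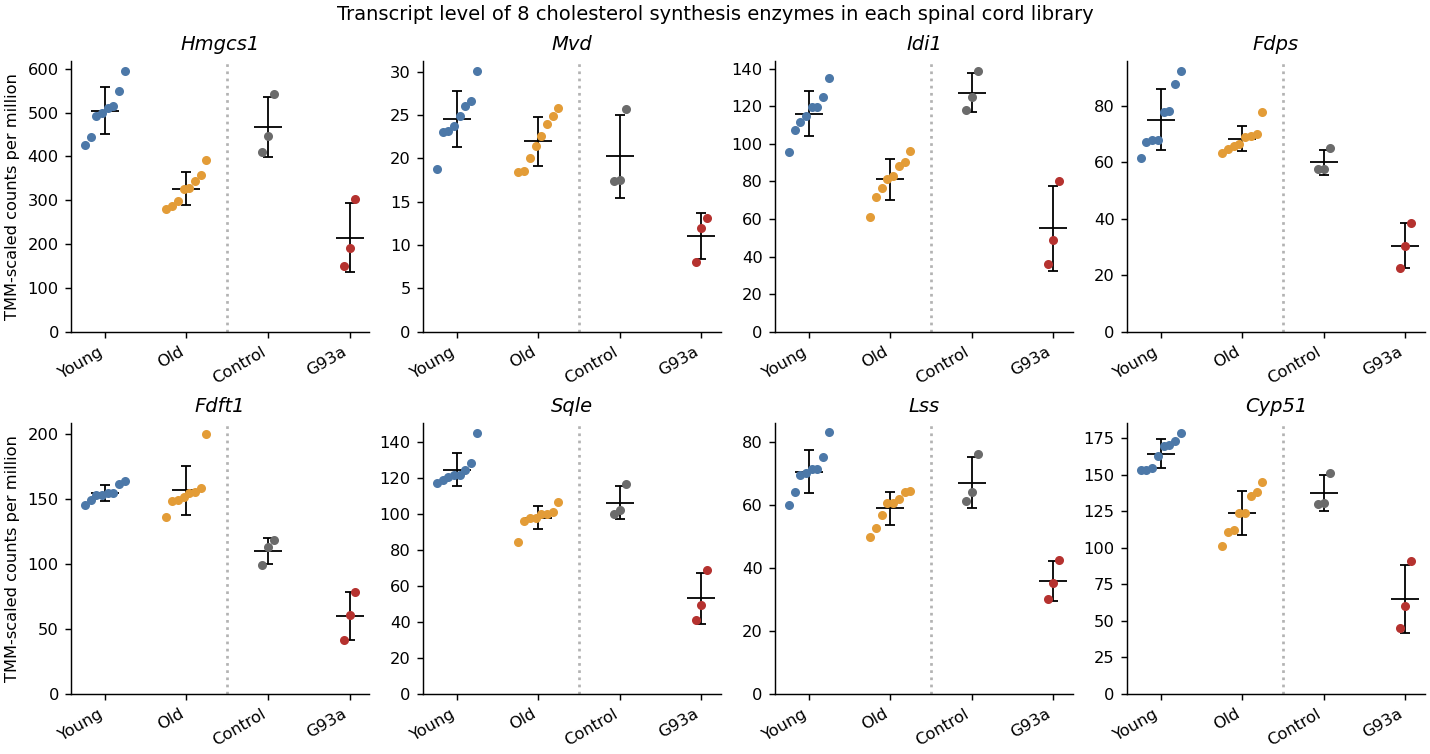
Level of each of the 8 transcripts in every library, in TMM-scaled CPM on axes that start at 0, with the mean and SD of each group as bars and the points of a group sorted by value. The dotted line parts the KAPA libraries (Young and Old, n = 8 each) from the TruSeq libraries (Control and G93a, n = 3 each). Every G93a point lies below every Control point in all 8 panels, as was so for 24.7% of all genes tested. In aging the groups lie apart for Hmgcs1, Sqle and Cyp51, with Old lower, as was so for 1.66% of all genes tested.

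Counted together, 5 of the 8 members were lower in Old (Hmgcs1, Idi1, Cyp51, Sqle and Lss), none was higher, and 3 did not pass the test (Mvd, Fdps and Fdft1). None was higher at an unadjusted p under 0.05 or by DESeq2 or limma either. Of all 13647 genes tested, 12.9% were lower and 13.5% higher in Old. The median log2 fold change of the members was -0.30, against -0.0027 for all genes. None of the members fell by more than 1 on the log2 scale, as did 0.044% of all genes. Old and Young did not overlap for 3 of the 8, with Old lower, against 1.66% of all genes. Without the Old library that stood apart the count was also 5 lower and 0 higher, with log2 fold changes of -0.67 for Hmgcs1, -0.56 for Idi1, -0.45 for Cyp51, -0.36 for Sqle and -0.25 for Lss.

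In the ALS experiment all 8 members were lower in G93a, against 15.5% of the 14386 genes tested, with 18.4% of all genes higher. The median log2 fold change of the members was -0.99, against 0.0031 for all genes. For 4 of them (Idi1, Hmgcs1, Cyp51 and Sqle) it went past -1, against 1.2% of all genes. The groups did not overlap for 8 of 8, with G93a lower, and 24.7% of all genes showed such a separation. An exact permutation test of 3 against 3 cannot go below p = 0.1, the value it gave for each member.

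Whether the members changed more in one experiment than in the other was tested in a single fit of all 22 libraries. For 7 of the 8 the change in G93a was the more negative one and passed the test, against 25.8% of the 14502 genes tested that differed in either direction. Fdft1 differed most, by -0.92 ± 0.16 on the log2 scale (adjusted p = 0.0002), followed by Fdps at -0.88 ± 0.17 (adjusted p = 0.000377). Mvd differed by -0.74, Idi1 by -0.72, Cyp51 by -0.70 and both Sqle and Lss by -0.68. Hmgcs1 was the exception, with a difference of -0.52 (95% interval -0.92 to -0.12, adjusted p = 0.0514). The count of 7 ran from 5 to 8 over the alternatives tried. Mvd missed the threshold without the highest control (adjusted p = 0.0621) or the lowest G93a mouse (adjusted p = 0.0727), and Idi1 without the lowest or the middle G93a mouse (adjusted p = 0.078 and 0.0524). Both missed it with limma on log2 FPKM (adjusted p = 0.0536 and 0.0542). Hmgcs1 passed at -0.86 without the highest G93a mouse (adjusted p = 0.000149). Without the Old library that stood apart the count was 7, with Fdft1 at -0.82 (adjusted p = 0.000234). The comparisons share no samples, but disease, library kit, sex and the ages compared differ between the experiments and cannot be told apart here.

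In terms of spread, the G93a mice differed among themselves more than the controls did, with a coefficient of variation between 17.4% (Lss) and 41.4% (Idi1), against 7.27% (Fdps) to 23.7% (Mvd) in Control. In G93a the 3 mice stood in 1 order for all 8 transcripts. The same held for the 3 controls, although the lower 2 of them were close for some members, at 17.4 and 17.5 CPM for Mvd and 57.4 and 57.5 for Fdps. The median difference of the 8 members from the control mean was -1.40 in the lowest mouse, -1.04 in the middle one and -0.62 in the highest, in log2 CPM. Even the highest mouse thus had all 8 members below the control mean. In Old the median difference from the young mean was -0.48 in 1 mouse, which had all 8 members below that mean, and lay between -0.25 and -0.35 in the other 7, which had 7 members below it each.

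**Figure D2:**
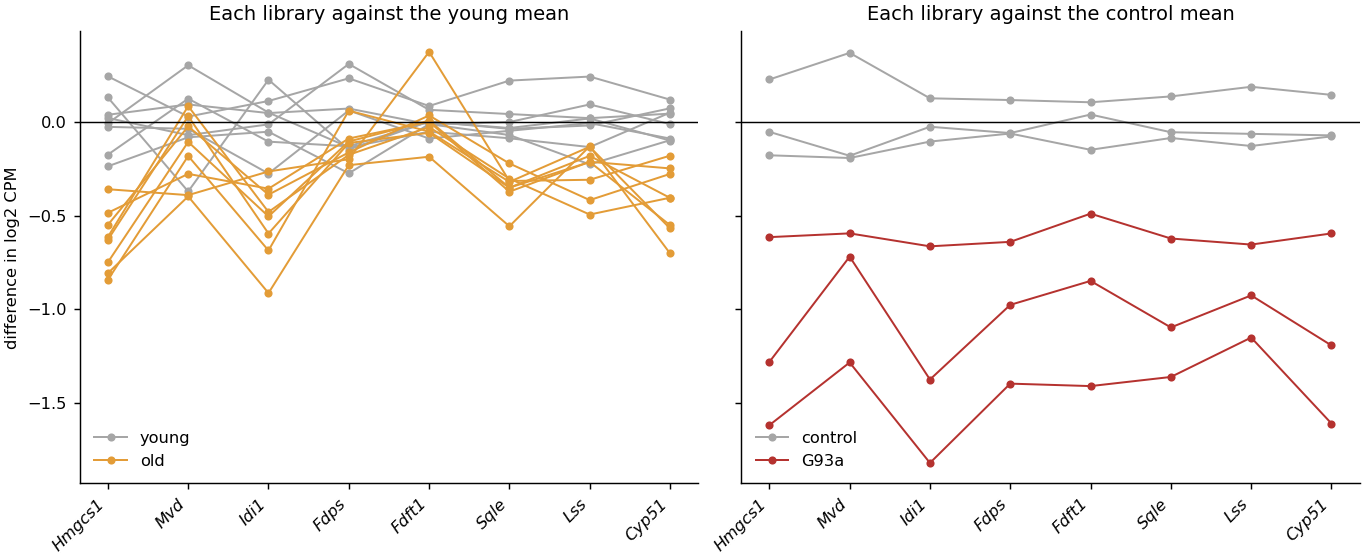
Difference in log2 CPM of each library from the mean of its reference group, with 1 line per library across the 8 transcripts. On the left all 8 old lines lie below 0 at Hmgcs1, Idi1, Sqle, Lss and Cyp51, and at Fdft1 1 old library stands above the rest at 0.38. On the right the 3 G93a lines run below the control lines at all 8 transcripts and do not cross.

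After the group means were taken out, Pearson's r over the 16 aging libraries had a median of 0.19 over the 28 pairs of members, 19 of them positive, and ran from -0.25 (Mvd with Lss) to 0.91 (Idi1 with Cyp51). Hmgcs1 went with Cyp51 (r = 0.83) and Idi1 (r = 0.75). Over the 6 ALS libraries all 28 pairs were positive, with a median of 0.96 and a range from 0.78 (Mvd with Idi1) to 0.996 (Idi1 with Cyp51). The points of such a correlation share library, depth and dissection, and the values are a description. Of all other genes tested, the 5 whose deviations were most like the mean of the members were Btf3 (r = 0.82, rho = 0.81), Stmn4 (0.82, 0.74), Nkain2 (0.82, 0.79), Fbln7 (0.81, 0.79) and Acss2 (0.79, 0.75), over the same 16 libraries. Without the 2 libraries farthest from the median, r ran from 0.56 (Acss2) to 0.77 (Fbln7). Acss2 makes acetyl-CoA from acetate, the starting unit of sterols and fatty acids. It was lower in Old and G93a, with log2 fold changes of -0.25 and -0.66 (adjusted p = 0.000398 and 0.00418). Btf3, the gene most like the members, was instead higher in both, at 0.23 and 0.32 (adjusted p = 8.46e-05 and 0.0188). Stmn4, Nkain2 and Fbln7 passed the test in neither comparison.

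Of the other 15 enzymes of the pathway, 6 were lower in Old and none higher, with a median log2 fold change of -0.15, and in G93a 11 were lower and none higher, with a median of -0.59. At an unadjusted p under 0.05 by edgeR, 9 and 11 were lower and 0 higher. Sc5d, a late desaturase, changed by -0.36 and -0.83 on the log2 scale, and Msmo1, which removes the methyl groups at carbon 4, by -0.31 and -1.01. Nsdhl, a sterol dehydrogenase, passed the test only in G93a, at -0.86 (adjusted p = 0.0024), against -0.16 in Old (adjusted p = 0.123), and the change differed between the experiments (adjusted p = 0.00143). Tm7sf2, a sterol reductase, changed by -0.25 in Old (adjusted p = 0.0479) and -0.70 in G93a (adjusted p = 0.00336).

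**Figure D3:**
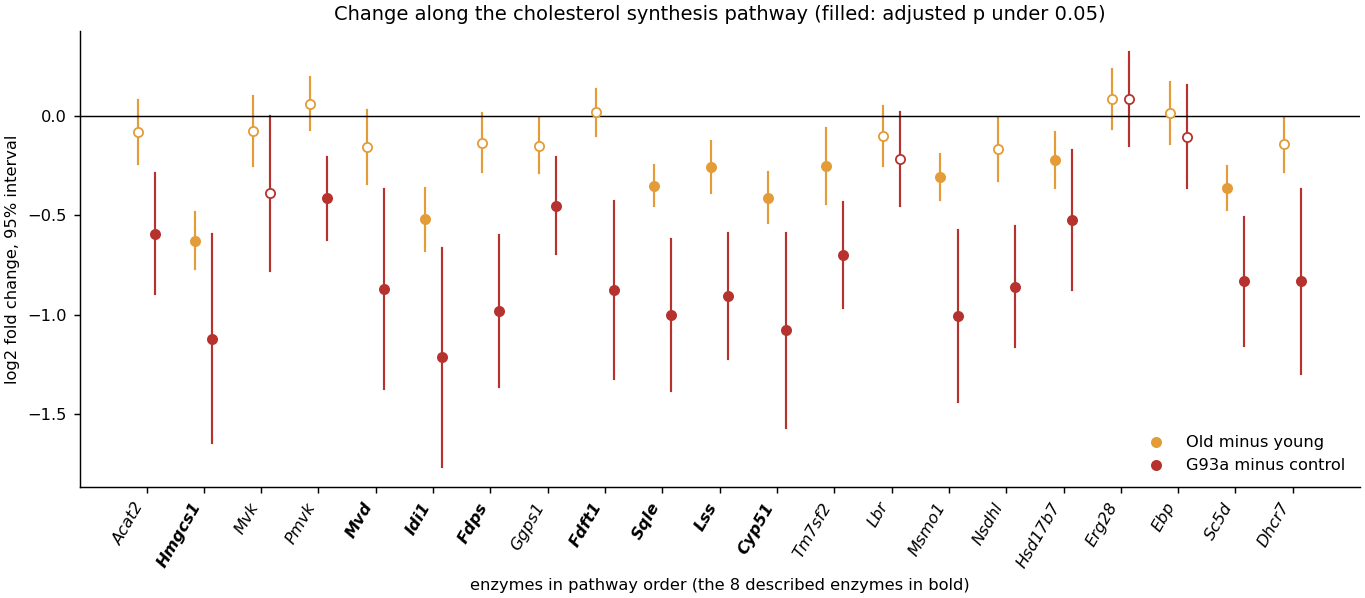
Log2 fold change of 21 enzymes of cholesterol synthesis (the 8 members and 13 of the other 15) in pathway order, with 95% intervals, for Old minus Young (n = 8 each) and G93a minus Control (n = 3 each). Filled points passed the test at an adjusted p under 0.05. In G93a 17 of the 21 points are filled and lie below 0, and Idi1 is the lowest at -1.22. In Old 9 are filled, and Hmgcs1 is the lowest at -0.63.

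Of the 11 genes that sense sterol and control SREBP, a list that shares 1 gene with the enzyme lists, 3 were lower and 1 higher in each comparison. Srebf2, which encodes SREBP-2, changed by -0.10 in Old (adjusted p = 0.0492) and by -0.52 in G93a (adjusted p = 0.0178). Insig1, a sterol-dependent anchor of SREBP and itself a target of it, was at -0.12 in Old (adjusted p = 0.181) and fell by 1.22 on the log2 scale in G93a (adjusted p = 0.0031). Srebf1, which encodes the isoforms that favour fatty acid genes, rose instead, by 0.29 and 0.77 (adjusted p = 0.00224 and 0.00239). Of the 9 uptake and transport genes tested, 2 were lower in each comparison, among them the sterol carrier Stard4, which changed by -0.21 in Old and -1.18 in G93a. Higher genes of that list were 3 in Old and 4 in G93a, among them Mylip, a ubiquitin ligase induced by sterol (0.51 and 1.59), and the lysosomal cholesterol handlers Npc2 (0.39 and 1.21) and Lipa (0.37 and 0.86). Each of these values passed the test.

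Fatty acid synthesis, which shares acetyl-CoA with the sterol pathway, had 6 of 12 genes lower and none higher in Old, and 7 lower and 1 higher in G93a. Elovl6 (elongase) changed by -0.46 and -0.80 on the log2 scale and Scd1 (desaturase) by -0.22 and -0.67, and all 4 values passed the test. Acly, which makes cytosolic acetyl-CoA from citrate, was at -0.07 in Old (adjusted p = 0.271) and -0.84 in G93a (adjusted p = 0.00071). The genes of efflux, storage and oxysterols went the other way for the members that moved most: 5 of 11 tested were higher and none lower in Old, and 5 of 12 higher and 2 lower in G93a. Apoe, the main lipid carrier of the nervous system, changed by 1.05 ± 0.07 in Old and 2.80 ± 0.31 in G93a, and the cholesterol exporter Abca1 by 0.66 ± 0.09 and 2.46 ± 0.26. Soat1, which esterifies cholesterol for storage, rose by 0.17 and 0.84. Ch25h, which makes 25-hydroxycholesterol, was at 0.154, 0.569 and 0.674 CPM in Control and at 11.2, 12.6 and 14.1 CPM in G93a. Its Control level was near the floor, and it passed the filter on low counts only through the G93a libraries. Its place among the 5 higher genes in G93a is therefore no separate support, and its counts were too low to be tested in aging.

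Markers of the cell types of the cord moved with these changes in the ALS experiment. In bulk tissue, fewer cells of a type and less RNA per cell cannot be told apart. Of 11 microglia markers 9 were higher in G93a, and their summed level went from between 396 and 480 CPM in Control to between 1715 and 3502 in G93a. Of 10 astrocyte markers 6 were higher (7087 to 7649 CPM in Control, 12738 to 19695 in G93a), and of 9 neuron markers 7 were lower (7214 to 7538 CPM and 2998 to 5068). Of the 6 motor neuron markers 4 were lower. The 13 markers of mature oligodendrocytes had 1 lower and 1 higher gene, and their summed levels overlapped, at 28556 to 32430 CPM in Control and 27387 to 30029 in G93a. No marker of these 5 lists was at 0 in any library.

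Within G93a the neuron sum followed the order of the enzymes, and the microglia and astrocyte sums ran in the reverse order. With 3 mice, such orders also arise often by chance. The mouse with the lowest summed level of the 8 members (374 CPM) had 3502 CPM of microglia markers, 19695 of astrocyte markers and 2998 of neuron markers. The middle mouse had 487 CPM of the members, with 2699, 17242 and 3363 of the marker sums in the same order. The highest had 714 CPM of the members, with 1715, 12738 and 5068. Mature oligodendrocyte markers stood at 27387, 30029 and 27448 CPM in these 3 mice and motor neuron markers at 151, 136 and 138. Neither list followed the order of the enzymes or its reverse. The part of cell composition in the lower enzyme transcripts was not tested.

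In aging the markers moved less, apart from microglia. Of 11 microglia markers 10 were higher in Old, with sums of 384 to 429 CPM in Young and 668 to 1180 in Old. The Old library that stood apart had the lowest microglia sum of its group (668 CPM) and the highest neuron sum (7198 CPM). Neuron markers had 4 lower and 1 higher of 9, with overlapping sums (6150 to 6891 CPM in Young, 5339 to 7198 in Old). Astrocyte markers had 4 higher and 1 lower of 10, with sums of 7641 to 8262 CPM in Young and 8420 to 9397 in Old. Gfap weighs heavily in these astrocyte sums, with a mean of 1843 CPM in Young and 2977 in Old. The median log2 fold change of the astrocyte list was only 0.03. Mature oligodendrocyte markers had 6 of 13 lower and 1 higher, and their sums overlapped (25971 to 32445 CPM and 25578 to 30259). Among them Mbp, a major myelin protein, rose by 0.16 ± 0.06 on the log2 scale (adjusted p = 0.0383). What these shifts contribute to the lower enzyme transcripts in Old was not tested.

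**Figure D4:**
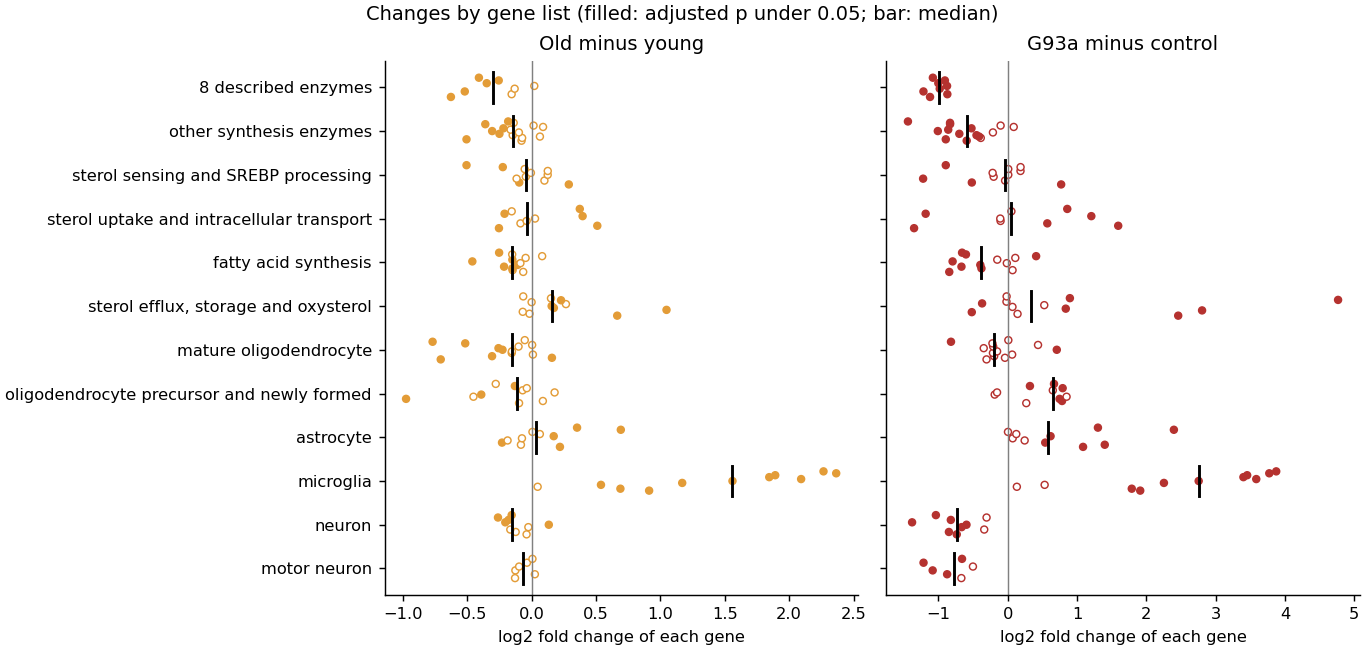
Log2 fold change of each gene tested in 12 lists, for Old minus Young on the left and G93a minus Control on the right, on axes of different range. Each point is a gene, filled where its adjusted p was under 0.05, and the bar is the median of the list. The 8 enzymes have medians of -0.30 and -0.99, and the other synthesis enzymes of -0.15 and -0.59, while the microglia markers have medians of 1.56 and 2.75.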

How the data were processed

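RNA from whole spinal cords was sequenced in 8 Young, 8 Old, 3 Control and 3 G93a mice. The authors aligned reads to the mouse genome (mm10, the same assembly as GRCm38) and deposited expected counts per gene estimated by RSEM, held as whole numbers, and log2 values of FPKM plus 1 (SAMtools 1.3 is named in the submitters' processing notes). Columns give the group but not the replicate number of the labels. Genes were named through GENCODE M21 by Ensembl identifier. Each comparison was fitted on its own with edgeR 4.0.16 (R 4.3.3): filterByExpr (minimum count 10, minimum total 15), TMM scaling and the quasi-likelihood test, with p-values adjusted by Benjamini-Hochberg across every gene in the fit and called under 0.05. The SE is the absolute log2 fold change over the square root of F. CPM are TMM-scaled, log2 CPM used a prior count of 2, and FPKM are 2 to the deposited value minus 1. The difference between the comparisons was a contrast in 1 fit of all libraries. The scripts were tested on simulated data.

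The members and the gene lists were chosen with earlier results of these data known, so a list is described by its counts and median only. Named genes were the 8 members, Srebf2, Insig1 and 3 other genes of the lists, up to 4 further genes per pathway list by adjusted p, up to 3 per cell type list by FPKM, and the 5 genes most like the members. Some genes that the rule names are counted in their lists but not reported here. Genes outside that rule (Ctsb, Akap9, Gm43738 and Sod1) are given because they overlap a member or bear on the labels. Gpr17 and Enpp6, also outside it, are given because they were lower in Old by more than the named gene of their list. Alternatives were DESeq2 1.42.0, limma 3.58.1 on the log2 FPKM, RLE or total-count scaling, other filters, a joint fit, a fold change over 1, and each library left out. Counts of shared exonic bases and promoter motifs used Python 3.11.15. Of the Idi1, Lss and Cyp51 promoter windows, 105, 17 and 49 bases lie past an earlier GENCODE start.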

Additional observations from a re-analysis of the deposited data

Results flagged for a closer look

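In 3 of the 16 groups of 8 libraries examined (8 genes in Young and Old), a single library stood apart from the rest of its group by Dixon's criterion at 95%, which chance alone meets in about 1 of 20 groups. Fdft1 reached 200.4 CPM in the highest Old library, which also stood apart in its scaling factor, Fdps 77.6 CPM in the highest Old library and Sqle 145 CPM in the highest Young library.

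The change in G93a against Control was more negative than the change in Old against Young for 7 members, tested in a joint fit. The differences on the log2 scale were -0.74 for Mvd, -0.72 for Idi1, -0.88 for Fdps, -0.92 for Fdft1, -0.68 for Sqle, -0.68 for Lss and -0.70 for Cyp51. The number of members that differed ran from 5 to 8 over the alternatives tried.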

How the results depend on the processing

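No member was higher in either comparison under any alternative. The count of members lower in Old was 4 with limma on log2 FPKM, 0 where a fold change over 1 on the log2 scale was also asked for, and 5 under all other alternatives, including each library left out. The count lower in G93a was 4 with that fold change, 7 to 8 with each library left out, and 8 otherwise. The only change of direction was that of Fdft1 in Old, which ran from -0.039 (without the old library with the highest Fdft1 level) to 0.045 with each library left out. The count that differed between the experiments was 8 with DESeq2, 5 with limma on log2 FPKM, and 5 to 8 with each ALS library left out. It was 7 without the Old library that stood apart, an alternative chosen after seeing the data. Hmgcs1 then passed the test without the highest G93a mouse (-0.86, adjusted p = 0.000149), without the lowest control (adjusted p = 0.041) or with DESeq2 (adjusted p = 0.0427), and its adjusted p ran up to 0.265. Mvd missed it without the highest control (adjusted p = 0.0621), without the lowest G93a mouse (adjusted p = 0.0727) and with limma (adjusted p = 0.0536), and Idi1 without the lowest or the middle G93a mouse (adjusted p = 0.078 and 0.0524) and with limma (adjusted p = 0.0542). The cause of these changes was not tested. No paired analysis was possible because the columns of the tables carry no replicate numbers, so no replicate block was fitted. With 3 mice per group, the intervals in G93a are wide (-1.77 to -0.67 for Idi1).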

Other observations

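Lists of other cells of the cord gave the following counts. Of 10 markers of precursor and newly formed oligodendrocytes, 3 were lower and 0 higher in Old, and 0 were lower and 5 higher in G93a, with median log2 fold changes of -0.12 and 0.66. Among the most abundant of them, Fyn, a kinase of early myelination, changed by -0.13 in Old (adjusted p = 0.0343) and 0.32 in G93a (adjusted p = 0.0288). Bcas1, a mark of cells that are starting to form myelin, did not pass the test in either (0.18 and -0.15). The other genes of the list lower in Old, Gpr17 and Enpp6, changed more there, by -0.98 and -0.39 (adjusted p = 1.46e-08 and 8.47e-05). Of 6 endothelial markers 2 were lower in Old and none passed the test in G93a, where 2 were lower at an unadjusted p under 0.05 by edgeR. Schwann cell markers had 1 higher of 2 tested in Old and 1 of 5 in G93a. Meningeal fibroblast markers had none past the test of 6 in Old, with 1 at an unadjusted p under 0.05, and 1 higher of 7 in G93a. None of the 5 red blood cell genes passed the test in either comparison, with 1 in Old and 0 in G93a at an unadjusted p under 0.05. None of the 6 motor neuron markers passed it in Old, also at an unadjusted p. Of 7 Hox genes 1 was lower in each comparison.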
